A study of Mus musculus with 14 samples.

Results

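The genes described here make, process or receive the peptides and the gas that set the tone of blood vessels, and their mRNA was followed through mouse lung development. They were taken by symbol: Edn1, Ednra, Ednrb and Ece1 of the endothelin system, Nos3 of nitric oxide synthesis, Ace and Agtr2 of the angiotensin system, and Adm, Calcrl and Ramp2 of the adrenomedullin system. Of these 10 genes, 9 were found in the array annotation, among 18193 genes there with a probe set of their own. Ednra, a receptor for endothelin, had no probe set named for it and was not analysed here. Where a gene had several probe sets, that with the highest mean over all arrays represented it, and the rest served as a check.

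Whole lungs of ICR mice had been dissected at embryonic days 12, 14, 16 and 18 (E12, E14, E16, E18), at postnatal days 2 and 10 (P2, P10) and at postnatal day 30 (Adult), and total RNA of pooled lungs had been hybridised to 14 Affymetrix arrays, 2 per time point. The mice carried no engineered allele and received no treatment according to the labels, which give the sex of every sample as female without saying whether embryos were sexed. How many lungs a pool held, and whether the arrays of a time point were separate pools, is not given in the sources used here, so each p-value measures the spread between arrays, which may be technical. Values are log2 intensities, so a difference of 1 is a doubling, and levels of different genes cannot be set against each other because each probe set binds with its own strength.

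At E12 and in Adult all 7 lung epithelial markers lay above 7. Between these time points, 5 rose, among them Sftpc, the surfactant protein of alveolar type II cells, from 10.88 to 14.81. Epcam fell by 1.51 and Nkx2-1 showed 0.28 (adjusted p = 0.253). The level above 7 did not hold throughout: Scgb1a1 read 9.59 and 8.10 at E12, 4.21 and 4.19 at E14, and 11.77 and 8.90 at E16. The mean of 8 heart muscle markers was 10.53 in the first array of E16 and 7.95 in the second, while on the other 12 arrays it lay between 6.25 and 9.14. The mean of 4 thymus markers was 6.32 and 5.62 on the same arrays of E16. This gap came mainly from Rag1, with 5.80 and 3.23 and no time-point mean above 7. Cd3e read 7.18 and 7.13 there, Dntt 6.01 and 6.02, and Cd8a 6.30 and 6.08. Between these arrays Ace differed by 0.62, Agtr2 by 0.39 and Calcrl by 0.38, each higher in the first, and the part of the heart tissue in these gaps was not tested. Without the first array of E16, the 6 rises from E16 to E18 described below had differences of 1.11 to 2.26. The second E16 array was not free of heart signal: Myl2 read 8.84 there, 12.63 on the first and at most 6.27 elsewhere. Each of the other heart markers read higher on some later array than on the second of E16. In RNA of a whole organ, fewer cells of a type and less RNA per cell cannot be told apart.

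Endothelin is made as a long precursor, mainly by endothelium and, in the lung, also by epithelium. The membrane protease Ece1 cuts it to the active peptide, which constricts vessels through the receptor Ednra on smooth muscle, whereas Ednrb on endothelium releases dilators and clears the peptide. Nos3, the endothelial nitric oxide synthase, makes the gas that relaxes smooth muscle through soluble guanylate cyclase and cyclic GMP. Ace, bound to the endothelial surface and abundant in lung capillaries, converts angiotensin I to angiotensin II, which acts through the type 1 and type 2 receptors. Adrenomedullin, the product of Adm, is a dilator whose receptor is formed by Calcrl together with Ramp2 or Ramp3, and its signal is needed for normal lymphatic and blood vessels.

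The start regions of 5 of these genes are shown because their mRNA followed different courses: that of Edn1, Ace and Calcrl rose towards the adult lung, that of Agtr2 rose and then fell, and that of Adm went up and down. Each line gives the 250 bases before a transcription start in RefSeq, in build GRCm38.p6, from 5′ to 3′ on the strand of the gene. Capitals mark TATAA, the core of a TATA box, and GGCGGG, a motif close to the GC box, with both strands searched. Where the letters overlap, 1 run of capitals holds more than 1 match.

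Edn1, chr13:42301226-42301475, plus strand: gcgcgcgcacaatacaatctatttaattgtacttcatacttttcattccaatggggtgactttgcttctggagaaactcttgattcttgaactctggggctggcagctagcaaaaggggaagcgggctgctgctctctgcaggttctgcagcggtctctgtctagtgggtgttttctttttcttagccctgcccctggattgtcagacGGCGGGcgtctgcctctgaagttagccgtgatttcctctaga

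Ace, chr11:105967698-105967947, plus strand: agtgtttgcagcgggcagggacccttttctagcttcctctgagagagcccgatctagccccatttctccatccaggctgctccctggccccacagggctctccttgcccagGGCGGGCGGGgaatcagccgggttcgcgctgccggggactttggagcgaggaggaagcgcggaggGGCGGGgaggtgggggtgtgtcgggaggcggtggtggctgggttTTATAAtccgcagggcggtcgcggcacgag

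Agtr2, chrX:21484374-21484623, plus strand: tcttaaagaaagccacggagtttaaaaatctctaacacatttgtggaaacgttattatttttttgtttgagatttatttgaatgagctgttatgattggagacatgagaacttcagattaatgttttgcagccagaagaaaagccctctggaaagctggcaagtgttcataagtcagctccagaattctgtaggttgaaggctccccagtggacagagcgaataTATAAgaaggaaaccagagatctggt

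Adm, chr7:110627407-110627656, plus strand: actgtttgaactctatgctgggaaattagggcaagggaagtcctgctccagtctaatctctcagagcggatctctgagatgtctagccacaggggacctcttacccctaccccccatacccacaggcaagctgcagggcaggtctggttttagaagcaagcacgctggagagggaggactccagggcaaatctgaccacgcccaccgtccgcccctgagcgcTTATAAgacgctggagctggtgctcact

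Calcrl, chr2:84425267-84425516, minus strand: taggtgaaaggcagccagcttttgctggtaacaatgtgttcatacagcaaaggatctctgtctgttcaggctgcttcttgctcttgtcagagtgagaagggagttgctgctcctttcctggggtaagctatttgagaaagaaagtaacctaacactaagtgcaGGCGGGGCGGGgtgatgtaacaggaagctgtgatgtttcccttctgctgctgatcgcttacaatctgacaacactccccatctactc

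TATAA lay close before the starts of Ace, Agtr2 and Adm. In Agtr2 it began at position -26 and ended at position -22, counted backwards from the start. In Ace and Adm the run TTATAA, which holds the motif on both strands, began at position -30 and -28. Of the 32851 promoters of the same length in the table, 22.8% held TATAA. The motif GGCGGG occurred 1 time before Edn1, 3 times before this first start of Ace and 2 times before Calcrl. It was absent before Agtr2 and Adm, and 32.5% of all promoters held at least 1 match. The usual GC box, GGGCGG, was not searched, so its absence before any gene is not shown. ACGTG, the core of the element bound by hypoxia-inducible factors, was found before 1 start of Ece1 among the 12 starts of the 8 genes listed, and in 16.6% of all promoters. TGANTCA, the AP-1 site, stood before none of the 12 starts, and in 6.75% of all promoters. Guanine and cytosine made up 38.4% of the bases before Agtr2, 48.4% before Calcrl, 50.4% before Edn1, 56.8% before Adm and 67.2% before Ace. Nos3 and Ramp2 were not in the table.

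Over the 7 time points the 9 genes followed 3 broad courses. Edn1, Ece1, Ace, Calcrl and Ramp2 rose to their highest mean in Adult. Agtr2 and Ednrb were highest at E16 and fell after P2, and Adm and Nos3 were highest at P10. The moderated F test of limma, adjusted over all 45037 probe sets, passed 0.05 for each of the 9, with adjusted p from 6.8e-12 for Calcrl to 6.28e-05 for Nos3. With a smooth spline over the time points in place of separate means, Ednrb and Nos3 did not pass (adjusted p = 0.0525 and 0.0548). With the further requirements of a highest time-point mean above 7 and a range of the means above 1.2, 7 of the 9 counted as dynamic, where 41.7% of the 11663 measured genes did. Measured genes are those with a highest mean above 7, which all 9 passed, Agtr2 through its levels from E14 to P2. Ednrb, with a range of 1.10, and Nos3, with a range of 0.89, stayed below the required range. The range of Calcrl, 4.83, exceeded that of 98.5% of the measured genes, and the range of Nos3 that of 42.3%.

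**Figure D1:**
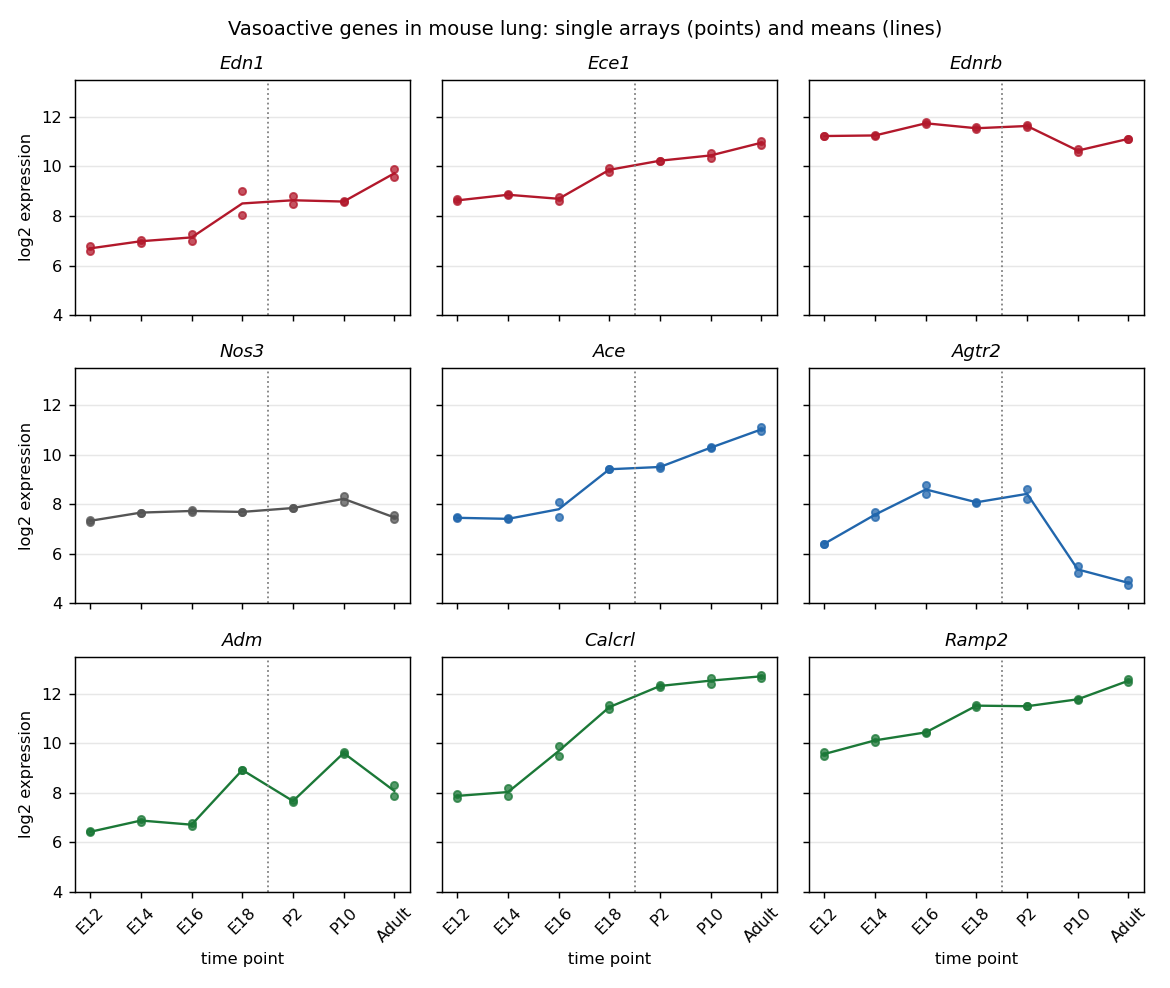
Log2 intensity on each of the 14 arrays, 1 panel per gene, with a point for each array, a line through the time-point means and a dotted line at birth. Edn1, Ece1, Ace, Calcrl and Ramp2 end at their highest mean in Adult, Agtr2 drops between P2 and P10, and Adm alternates from E16 onwards.

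Edn1, the ligand precursor, was 8.17-fold higher in Adult than at E12. Its arrays read 6.80 and 6.59 at E12, 7.03 and 6.93 at E14, 7.27 and 7.00 at E16, 8.99 and 8.02 at E18, 8.80 and 8.47 at P2, 8.56 and 8.61 at P10, and 9.89 and 9.56 in Adult. All arrays up to E16 lay below all later ones, and both Adult arrays lay above all others. The difference of Adult from E12 was 3.03 (SE 0.23, adjusted p = 6.56e-08). It was made in 2 steps that passed the test, a rise of 1.37 from E16 to E18 (SE 0.23, adjusted p = 0.00034) and a rise of 1.14 from P10 to Adult (SE 0.23, adjusted p = 0.00244). Between E18, P2 and P10 the levels overlapped, and P2 differed from E18 by 0.13 (adjusted p = 0.787). The arrays of E18 were 0.97 apart, the widest gap of this gene. Edn1 had 1 probe set, so no other could check it.

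Ece1, the converting enzyme, rose with a similar course and a tighter spread. Its arrays read 8.59 and 8.67 at E12, 8.84 and 8.87 at E14, 8.77 and 8.62 at E16, 9.96 and 9.77 at E18, 10.23 and 10.24 at P2, 10.34 and 10.55 at P10, and 11.04 and 10.87 in Adult. From E18 onwards the arrays of each time point lay above those of the time point before. Adult exceeded E12 by 2.33 (SE 0.11, adjusted p = 3e-10), a 5.02-fold difference, and E18 exceeded E16 by 1.17 (adjusted p = 1.21e-06). Adult was also above P10, by 0.51 (adjusted p = 0.00252). The step from E18 to P2, 0.37 (adjusted p = 0.0331), did not pass without the second array of E18 (adjusted p = 0.199) or without either array of P2 (adjusted p = 0.132 and 0.146). Both further probe sets of Ece1 rose from E12 to Adult, by 2.35 and 1.12. The dimmer of these, at 6.70 in Adult, differed by 0.11 between E16 and E18 (adjusted p = 0.602), where the other probe sets had their rise.

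Ednrb, the receptor that clears endothelin, fell by 0.99 between P2 and P10 and rose in part again. Its arrays read 11.24 and 11.21 at E12, 11.23 and 11.27 at E14, 11.70 and 11.79 at E16, 11.50 and 11.58 at E18, 11.61 and 11.66 at P2, 10.59 and 10.69 at P10, and 11.12 and 11.11 in Adult. The P10 arrays were the lowest of the series and the E16 arrays the highest, and the replicates of a time point were never more than 0.093 apart. The fall from P2 to P10, 1.99-fold, had an SE of 0.08 and an adjusted p of 1.57e-05, and the rise of 0.48 from P10 to Adult one of 0.00077. Earlier, E16 exceeded E14 by 0.49 (adjusted p = 0.0014).

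The net change of Ednrb from E12 to Adult depended on the probe set. By the brightest one it was -0.11 (95% confidence interval -0.29 to 0.07, adjusted p = 0.269). Both others fell, by 0.55 (adjusted p = 0.000313) and by 0.75 (adjusted p = 0.000442). All 3 fell from P2 to P10, by 0.99, 1.18 and 1.27. From E16 to E18 the brightest showed -0.20 (adjusted p = 0.0759), while the others fell by 0.32 (adjusted p = 0.0226) and 0.49 (adjusted p = 0.0157). The rise from E14 to E16 was 0.49 in the first and second (adjusted p = 0.0014 and 0.00502). It was 0.40 in the third (adjusted p = 0.0746). The rise from P10 to Adult passed in 2 of the 3, with 0.48 and 0.39, and was 0.40 in the probe set with the widest range (adjusted p = 0.0605).

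Nos3, the endothelial nitric oxide synthase, moved within a narrow range by its 1 probe set, which no other could check. Its arrays read 7.30 and 7.37 at E12, 7.66 and 7.67 at E14, 7.77 and 7.70 at E16, 7.71 and 7.69 at E18, 7.87 and 7.84 at P2, 8.10 and 8.35 at P10, and 7.55 and 7.39 in Adult. The P10 arrays lay above all others, and the Adult arrays lay above those of E12 and below the remaining ones. Between P10 and Adult Nos3 fell by 0.75 (SE 0.10, adjusted p = 7.28e-05). Adult and E12 differed by 0.14 (95% confidence interval -0.08 to 0.35, adjusted p = 0.258), so a net change above 0.35 in either direction lay outside the interval. The rise from P2 to P10, 0.37 (adjusted p = 0.0397), was not past the threshold in 9 of 22 alternatives, with an adjusted p of 0.268 without the second array of P10, 0.177 and 0.191 without an array of P2, 0.0575 without either array of E14, 0.0518 without either of E18 and 0.0577 with the replicate number as a block. The mean of P2, P10 and Adult exceeded the prenatal mean by 0.24 (adjusted p = 0.00132).

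Several partners of Nos3 on the receiving side were higher at E18 than at E16. Gucy1a1 and Gucy1b1, the subunits of soluble guanylate cyclase, rose by 0.60 and 0.86 between E16 and E18 (adjusted p = 0.00055 and 0.000307), and Prkg1, the kinase that cyclic GMP activates, rose by 0.78. A further subunit, Gucy1a2, rose by 0.39 (adjusted p = 0.00785). Pde5a, which breaks down cyclic GMP, showed 0.34 in that step (adjusted p = 0.0581). Between P10 and Adult Gucy1a1 fell by 0.76 (adjusted p = 0.000146) and Pde5a fell by 0.82 (adjusted p = 0.000453), in the step in which Nos3 fell. Gucy1b1 differed by -0.08 in that step (adjusted p = 0.776) and Gucy1a2 by 0.01 (adjusted p = 0.963). Of the other synthases, Nos1 showed 0.22 between E12 and Adult (adjusted p = 0.128) and Nos2 had no time-point mean above 7. The 5 genes Gucy1a1, Gucy1a2, Gucy1b1, Prkg1 and Pde5a were picked from the related genes after their values were seen.

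Ace, the angiotensin-converting enzyme, was 11.9-fold higher in Adult than at E12. Its arrays read 7.44 and 7.48 at E12, 7.40 and 7.44 at E14, 8.11 and 7.49 at E16, 9.42 and 9.41 at E18, 9.55 and 9.47 at P2, 10.31 and 10.27 at P10, and 10.95 and 11.10 in Adult. The levels formed 4 steps without overlap: up to E16, E18 with P2, P10, and Adult. Adult exceeded E12 by 3.57 (SE 0.15, adjusted p = 1.19e-10). The rise from E16 to E18 was 1.61 (adjusted p = 1.31e-06), that from P2 to P10 was 0.78 (adjusted p = 0.00649) and that from P10 to Adult was 0.74 (adjusted p = 0.00199). Without the second array of P2 the middle one had an adjusted p of 0.0586. The second probe set of Ace gave 3.70 between E12 and Adult and 2.15 between E16 and E18. Its arrays of E16 read 7.02 and 7.44. The first array of E16, which carried the stronger heart signal, was thus the higher one by 1 probe set and the lower one by the other.

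Agtr2, the type 2 angiotensin receptor, took the opposite course after birth. Its arrays read 6.41 and 6.42 at E12, 7.49 and 7.69 at E14, 8.80 and 8.41 at E16, 8.10 and 8.07 at E18, 8.62 and 8.23 at P2, 5.23 and 5.52 at P10, and 4.93 and 4.73 in Adult. All arrays of P10 and Adult lay below every earlier array. From P2 to P10 Agtr2 fell by 3.05 (SE 0.16, adjusted p = 4.01e-07), an 8.29-fold difference. Before that it had risen by 1.17 from E12 to E14 (adjusted p = 0.00113) and by 1.02 from E14 to E16 (adjusted p = 0.000639). At E16, E18 and P2 all arrays lay between 8.07 and 8.80. The fall of 0.52 from E16 to E18 (adjusted p = 0.0162) was lost without the first array of E16 (adjusted p = 0.183) or either array of E18 (0.0593 and 0.0668). The further fall of 0.54 from P10 to Adult (adjusted p = 0.019) was lost without the second array of P10 (adjusted p = 0.167) or of Adult (0.137). Adult relative to E12 was at -1.58 (adjusted p = 7.42e-07), with both means, 4.83 and 6.41, below 7. A single probe set stood for Agtr2.

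The other measured parts of the angiotensin system had courses of their own. Agtr1a, the type 1 receptor that mediates constriction, rose by 3.43 from E12 to Adult (SE 0.10, adjusted p = 6.85e-12) and reached 9.21 and 9.07 at E18. From P2 to P10, where Agtr2 fell, Agtr1a differed by 0.10 (adjusted p = 0.704). Agt, the precursor of angiotensin, climbed by 2.12 from E16 to E18 (adjusted p = 3.32e-06) and by 1.32 from P2 to P10 (adjusted p = 0.00239). It then fell by 3.65 to Adult (SE 0.21, adjusted p = 6e-08), from 10.70 and 10.78 to 7.53 and 6.65, in the step in which Ace rose. Agtr1b had no mean above 7, and Ren1 was not analysed here.

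**Figure D2:**
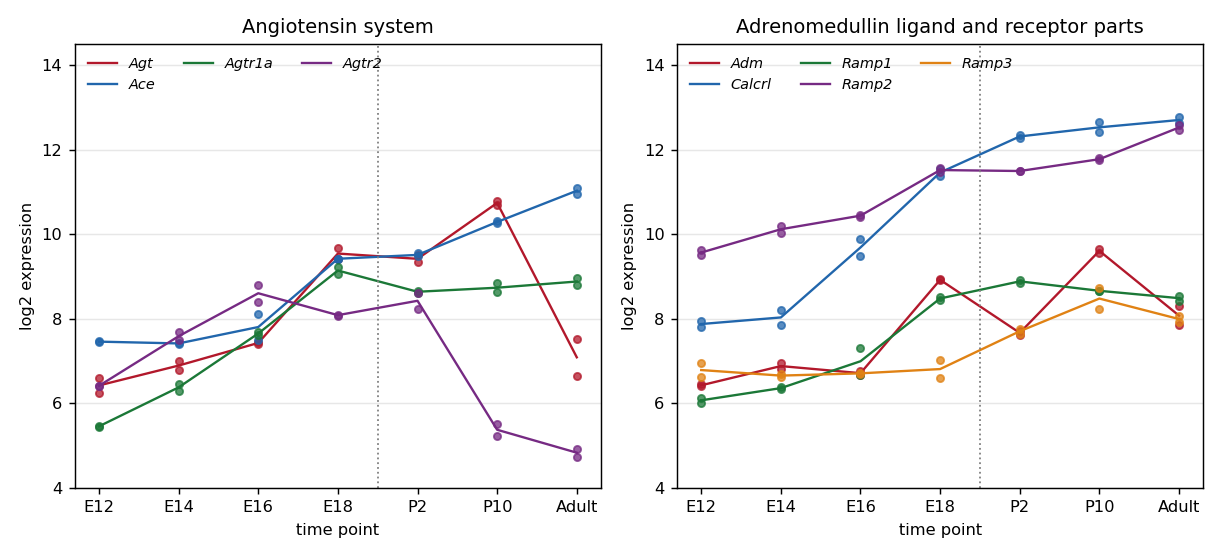
Time-point means in log2 intensity with a point for each array, for Agt, Ace, Agtr1a and Agtr2 of the angiotensin system and for Adm, Calcrl, Ramp1, Ramp2 and Ramp3 of the adrenomedullin system. Agtr2 falls by 3.05 from P2 to P10 while Ace rises by 0.78, and heights of different genes are not comparable.

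Adm, the adrenomedullin precursor, changed direction at 3 successive steps. Its arrays read 6.45 and 6.40 at E12, 6.81 and 6.95 at E14, 6.77 and 6.66 at E16, 8.93 and 8.91 at E18, 7.62 and 7.71 at P2, 9.65 and 9.56 at P10, and 8.29 and 7.85 in Adult. From E16 to E18 it rose by 2.21 (SE 0.12, adjusted p = 1.41e-08), or 4.62-fold. Then it fell by 1.25 to P2 (adjusted p = 2e-05), rose by 1.94 to P10 (adjusted p = 1.75e-06) and fell by 1.53 to Adult (adjusted p = 9.47e-07). No array of any of these time points overlapped with those of the next. The second probe set of Adm moved the same way at each step, by 2.43, -1.48, 2.11 and -1.87, and correlated with the first at r = 0.99 over the 14 arrays. Adult remained above E12 by 1.65 (adjusted p = 4.78e-08).

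Calcrl, the receptor that binds adrenomedullin, had the widest range of the 9 genes. Its arrays read 7.80 and 7.95 at E12, 7.85 and 8.21 at E14, 9.88 and 9.50 at E16, 11.38 and 11.53 at E18, 12.27 and 12.35 at P2, 12.41 and 12.65 at P10, and 12.64 and 12.76 in Adult. E12 and E14 overlapped, the next 3 time points were each above the one before, and P10 and Adult overlapped. Adult exceeded E12 by 4.83 (SE 0.15, adjusted p = 6.94e-12), or 28.4-fold. The rises were 1.66 from E14 to E16 (adjusted p = 7.92e-06), 1.77 from E16 to E18 (adjusted p = 4.76e-07) and 0.85 from E18 to P2 (adjusted p = 0.00144). After P2 the steps were 0.22 (adjusted p = 0.484) and 0.17 (adjusted p = 0.452). Both further probe sets rose from E12 to Adult, by 3.82 and 1.41, the smaller value from a probe set whose highest mean was 4.88.

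Ramp2, the partner that turns Calcrl into an adrenomedullin receptor, rose to Adult by 2.96 (SE 0.09, adjusted p = 1.1e-11), or 7.77-fold. Its arrays read 9.64 and 9.50 at E12, 10.03 and 10.20 at E14, 10.46 and 10.41 at E16, 11.48 and 11.56 at E18, 11.49 and 11.50 at P2, 11.75 and 11.80 at P10, and 12.59 and 12.46 in Adult. Apart from E18 and P2, no neighbouring time points overlapped. The largest steps were 1.08 from E16 to E18 (adjusted p = 8.36e-07) and 0.75 from P10 to Adult (adjusted p = 4.84e-05). The rise of 0.55 from E12 to E14 (adjusted p = 0.00576) was lost without the second array of E12 (adjusted p = 0.0704) or of E14 (0.104). The rise of 0.32 from E14 to E16 (adjusted p = 0.0322) was lost without the first array of E14 (adjusted p = 0.256) or either of E16 (0.173 and 0.0752). A pair of further probe sets of Ramp2, listed with Vps25 as well, was not used.

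The other accessory proteins differed in timing. Ramp1, which makes Calcrl a receptor for calcitonin gene-related peptide, rose by 1.49 from E16 to E18 and ended 2.42 above E12 (adjusted p = 7.54e-09). Ramp3, the alternative partner for adrenomedullin, showed 0.10 from E16 to E18 (adjusted p = 0.694). Its prenatal means were all below 7, at most 6.81 at E18. Ramp3 rose after birth, by 0.89 from E18 to P2 (adjusted p = 0.00336) and by 0.77 from P2 to P10 (adjusted p = 0.016), and ended 1.21 above E12. Adm2 and Calcb had no mean above 7, and Calca was not analysed here.

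Read step by step, between 2 and 8 of the 9 genes passed the test. From E12 to E14, 2 of 9 were higher and 0 lower, where 5.12% of measured genes were higher and 0.986% lower. From E14 to E16, 4 were higher and 0 lower, against 13.7% and 15.3%. In neither step was a gene lower in limma at an unadjusted p under 0.05, or in an ordinary analysis of variance. From E16 to E18, 6 were higher (Edn1, Ece1, Ace, Adm, Calcrl, Ramp2) and Agtr2 was lower, where 33.1% of measured genes rose and 30.7% fell. Without the first array of E16 the difference of Agtr2 was -0.32. Ednrb did not pass by its brightest probe set (-0.20, adjusted p = 0.0759), whereas both of its others fell. The median difference of the 9 genes in that step was 1.17, and that of all measured genes 0.03.

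Around birth 3 of the genes moved. From E18 to P2, Ece1 and Calcrl rose and Adm fell, against 11.5% and 14.1% of measured genes. From P2 to P10, Nos3, Ace and Adm rose and Ednrb and Agtr2 fell, where 6.76% of measured genes rose and 5.9% fell. From P10 to Adult, 5 rose (Edn1, Ednrb, Ece1, Ace, Ramp2) and 3 fell (Nos3, Agtr2, Adm), against 21.2% and 21.4%, and Calcrl was the one gene that did not pass. These counts are descriptions of 9 genes, and no test was made of them as a list.

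Over longer spans more of the 9 genes were higher than lower. Between E12 and Adult, 6 of 9 were higher and 1 lower, where 39.5% of measured genes were higher and 42.5% lower, with a median difference of 2.33 beside -0.04 for all measured genes. Between E18 and Adult, 5 were higher and 3 lower (Ednrb, Agtr2, Adm), against 22.6% and 28.7%. The mean after birth exceeded the mean before birth in 7 genes and was below it in Ednrb and Agtr2, against 40.1% and 43.7%.

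**Figure D3:**
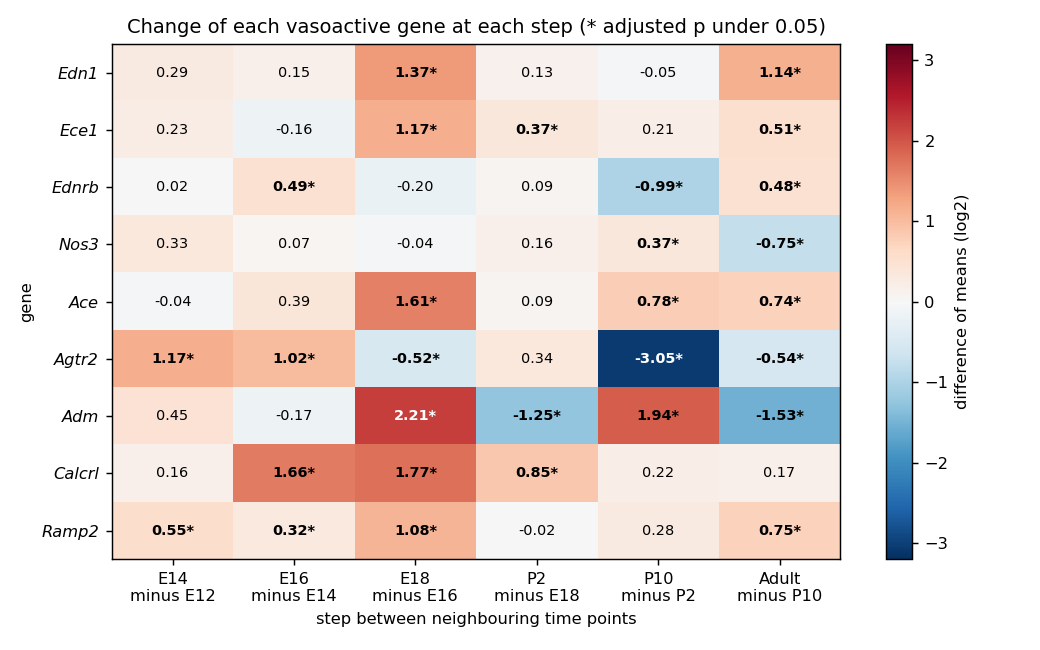
Difference in log2 intensity of each time point from the one before, for the 9 genes (rows) and 6 steps (columns), red for higher and blue for lower, with a star where the adjusted p was under 0.05. The column from E16 to E18 holds 6 rises and 1 fall, and the strongest fall is that of Agtr2 from P2 to P10.

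Several of these genes are expressed by endothelium, and endothelial markers moved too. All 14 endothelial markers, among them Pecam1 and Cdh5, were higher in Adult than at E12, by 1.31 to 5.31 with a median of 2.46, and 13 of 14 rose from E16 to E18. Their mean level lay between 8.47 and 8.50 at E12, between 10.35 and 10.43 at E18 and between 11.05 and 11.14 in Adult. Of 8 markers of smooth muscle and pericytes, 7 were higher in Adult than at E12, with a median of 0.74, and from E16 to E18, 3 rose and 3 fell. All of these markers had a highest mean above 7. The mean of 5 red blood cell markers was at most 9.21 at E12 and at most 6.44 in Adult. These 5 did not move together. The embryonic globins Hbb-y and Hbb-bh1 fell by 10.31 and 5.42 and Slc4a1 by 1.29, whereas Alas2 rose by 1.69 (adjusted p = 8.9e-05). Hba-a1 had no mean above 7. The part of cell numbers in the changes of the 9 genes was not tested.

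Set against the mean of the 14 endothelial markers on the same array, the genes spread in both directions. Relative to that mean Calcrl still rose from E12 to Adult, by 2.22 (SE 0.14, adjusted p = 1.66e-10), and Ace by 0.96 (adjusted p = 1.44e-05). Ramp2 rose by 0.35 (adjusted p = 0.00577), and Edn1 showed 0.42 (adjusted p = 0.0803). Ece1 fell by 0.28 on this scale (adjusted p = 0.029) and Adm fell by 0.96 (adjusted p = 5.96e-06). The values of Ece1 and Edn1 turned on 1 marker, Vwf, which rose by 5.31. Without it Ece1 showed -0.08 (adjusted p = 0.558) and Edn1 0.63 (adjusted p = 0.014), while Adm still fell, by 0.75 (adjusted p = 9.2e-05). Of the 14 markers, 5 rose less than Ece1, 11 less than Edn1 and 2 less than Adm.

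Nos3, Ednrb and Agtr2 fell against the endothelial markers. Relative to their mean, Nos3 fell by 2.47 from E12 to Adult (SE 0.11, adjusted p = 2.88e-12), of which it fell by 1.03 from E16 to E18 (adjusted p = 6.33e-07). Relative to the marker mean, from E12 to Adult Ednrb fell by 2.72 (adjusted p = 2.65e-13) and Agtr2 fell by 4.19 (adjusted p = 2.46e-13). Ramp2 differed from the markers by 0.08 from E16 to E18 (SE 0.11, adjusted p = 0.464). The turns of Adm remained, with 1.21 from E16 to E18, -1.36 to P2, 1.61 to P10 and -1.80 to Adult. The falls of Nos3, Ednrb and Agtr2 also passed without Vwf. Those of Nos3 and Agtr2 rest on 1 probe set each. This scaling was added after the data had been seen.

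**Figure D4:**
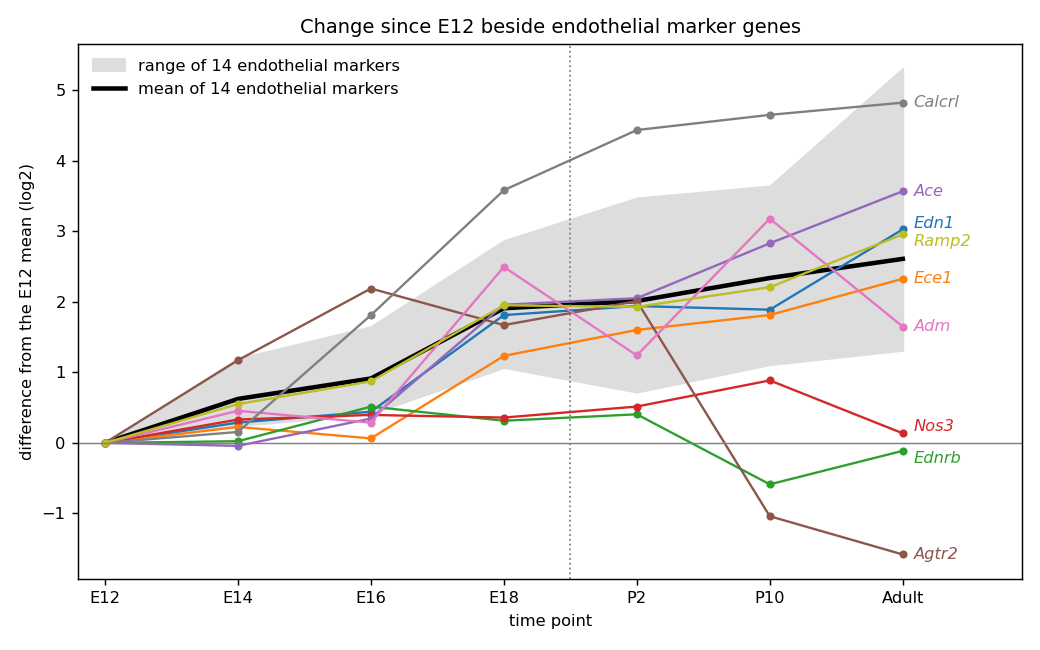
Change in log2 intensity since E12 for each of the 9 genes, over the 7 time points, beside the range (grey) and the mean (black line) of 14 endothelial marker genes. Calcrl runs above the mean of the markers from E16 onwards, whereas Nos3, Ednrb and Agtr2 end at -2.47, -2.72 and -4.19 relative to it in Adult.

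The wider set of vasoactive genes held 50 further names, of which 47 had a probe set and 30 were measured. Between E12 and Adult 19 of the 30 rose and 4 fell, with a median difference of 0.85, and from E16 to E18, 17 rose and 7 fell. The shares of all measured genes were 39.5% higher and 42.5% lower in the first comparison, with a median of -0.04, and 33.1% and 30.7% in the second. The 7 falls from E16 to E18 included Nppa, which is also among the heart muscle markers. Its only time-point mean above 7 was that of E16, 8.01, from arrays of 10.46 and 5.55. Nppa thus counted as measured only through the first array of E16, which carried the stronger heart signal. Its F test did not pass (adjusted p = 0.0625). The largest rises outside the named partners were those of Mme (neprilysin, a protease that degrades vasoactive peptides) by 5.20, Nostrin (a protein that moves Nos3 away from the membrane) by 4.37 and Cav1 (the caveolar protein that binds and restrains Nos3) by 2.33. These steps had adjusted p of 4.5e-13, 1.16e-10 and 1.36e-10. The falls were smaller. Ddah2, of a family named for breaking down an inhibitor of nitric oxide synthases, fell by 0.68 (adjusted p = 2.15e-05). Its relative Ddah1 rose by 0.75 (adjusted p = 1.05e-05). Crcp fell by 0.43 and Npr3, the clearance receptor for natriuretic peptides, fell by 0.27 (adjusted p = 0.0292).

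Relatives of the endothelin genes were measured too. Ece2, the second converting enzyme, fell by 1.68 from E12 to Adult (SE 0.11, adjusted p = 8.4e-09), in contrast to the rise of Ece1. Edn3, the ligand that binds Ednrb with preference, rose by 0.80 from E14 to E16 (adjusted p = 0.00199), in the step in which Ednrb rose by 0.49. It fell by 0.95 from E18 to P2 (adjusted p = 0.000587), before the fall of Ednrb, and differed by 0.19 between E12 and Adult (adjusted p = 0.288). Edn2 had no mean above 7.

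Genes with the most similar course were sought by Pearson r over the 14 arrays among 11313 genes, the measured ones without predicted genes, clones and the 9 genes themselves. The points share their time points, so a high r says mainly that 2 genes have the same time course. For the rising genes many were as similar. With r above 0.95 there were 374 for Edn1, 546 for Ece1, 591 for Ace, 608 for Calcrl and 791 for Ramp2. The nearest were Shroom3 for Edn1 (r = 0.984), Cbfa2t3 for Ece1 (0.992), Reps2 for Ace (0.994), Pmp22 for Calcrl (0.997) and Acvrl1, an endothelial receptor of the TGF-beta family, for Ramp2 (0.995). Aqp1, a water channel of lung endothelium, was among the 3 nearest to Calcrl (0.993). The remaining nearest genes were Usp25 and Nipal3 for Edn1, Chst8 and Sirpa for Ece1, Scel and Prkch for Ace, Smagp for Calcrl, and Tapbp and Grina for Ramp2.

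The other courses had few neighbours. Above 0.95 there were 2 genes for Nos3, 1 for Adm and 0 for Ednrb and Agtr2. Nearest to Nos3 were Gpc4 (r = 0.955), Col16a1 and the matrix protein gene Tnc (0.947). Nearest to Adm were Adamts10 (0.964), Lrrc75a and Cnksr3, nearest to Ednrb were Tmem107 (0.897), Wdpcp and Tusc3, and nearest to Agtr2 were Ryr3 (0.922), Ncoa4 and Pradc1. Among the 9 genes themselves, Ece1 and Ace ran most alike (r = 0.98), Ednrb and Agtr2 had 0.85, and the lowest r was that of Ace with Agtr2 (-0.54).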

How the data were processed

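Total RNA of pooled mouse lungs had been hybridised to Affymetrix Mouse Genome arrays. The log2 values were deposited by the authors after processing in Partek 6.4. The methods name Robust Multichip Average and the processing notes GCRMA, so the background step is not settled. Arrays report no depth, and their number limits the precision. In R 4.3.3 with limma 3.58.1, 1 mean per time point was fitted to 45037 probe sets (64 controls left out), with Benjamini-Hochberg adjusted p over all of them, residual df 7 and prior df 6.04. Symbols came from the platform annotation, and 932 probe sets with several symbols were not used for genes. The promoters came from RefSeq. The fit was tested on simulated data. The 10 genes, the related genes and the markers were chosen with earlier results of these data known. Named were all 10 genes, their direct partners, the 3 largest rises and falls of the related genes, and the 3 nearest genes by r. Alternatives were other normalization, probe set choice, variance models and leaving out each array.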

Additional observations from a re-analysis of the deposited data

How the results depend on the processing

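Of 81 differences of the 9 genes, 53 passed, and 44 of these passed in the same direction under all 22 alternatives, whereas 9 missed the threshold under at least 1 and 0 reversed. Of 28 that did not pass, 5 did under some alternative. Ednrb in Adult against E12 turned from -0.11 to 0.013 under quantile normalization. The count of genes passing from E12 to E14 lay between 1 and 3 when single arrays were left out, and that from P2 to P10 between 3 and 5. Under ordinary analysis of variance 3 passed from P2 to P10. Replicate numbers did not pair the arrays: of 21 pairs of time points 2 had a correlation of deviations over 0.1 and 8 one below -0.1. With the replicate number as a block, 4 genes passed from P2 to P10. Arrays of 2 per time point, with no depth, limit all values.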
